A study of Mus musculus with 30 samples.

Results

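The neutrophil-attracting CXC chemokines described here are 6 mouse genes, Cxcl1, Cxcl2, Cxcl3, Cxcl5, Ppbp and Pf4, chosen by gene symbol and matched by Ensembl identifier; all 6 were found among the 50764 gene models counted. PolyA RNA was sequenced in 30 mouse libraries, in 10 groups of 3. Macrophages sorted on F4/80 gave 18 of them. These were either ex vivo or had been cultured by themselves, with ATRA (retinoic acid in its all-trans form, 1 uM), in contact with podoplanin-positive (PDPN+) cells, across a porous transwell membrane, or with BMS493 (1 uM), which acts on retinoic acid receptors as an inverse agonist. PDPN+ stromal cells, placed in the omentum by the labels, gave the other 12, with the same culture conditions except ATRA. Genotype, strain and age are not given, nor is it stated which cells shared the BMS493 cultures; each BMS493 group is set against the co-culture. Each group holds 1 library from each of 3 batches, labelled mbb336, mbb339 and mbb340. Since the labels do not say that replicates were separate animals or cultures, p-values here describe the spread among libraries, which may be technical.

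CXC chemokines are small secreted proteins that bind G protein-coupled receptors on leukocytes and direct their movement. Those with a glutamate-leucine-arginine motif before the CXC cysteines (the products of Cxcl1, Cxcl2, Cxcl3, Cxcl5 and Ppbp) act through Cxcr2 and draw neutrophils to inflamed tissue. Pf4, platelet factor 4, lacks that motif and is the least neutrophil-directed of the family; it is stored with the Ppbp product in platelet granules and is also made by resident macrophages. In macrophages and stromal cells Cxcl1 and Cxcl2 are classic early targets of the transcription factor NF-kB downstream of interleukin 1, TNF and Toll-like receptors, and AU-rich mRNAs of the group are destabilised by Zfp36 family proteins.

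The 6 genes lie in 1 cluster of 147 kb on the plus strand of mouse chromosome 5 (GRCm38). From the 5' end these are Cxcl5 (chr5:90759360-90761624), Ppbp (chr5:90768518-90770063), Pf4 (chr5:90772435-90773383), Cxcl3 (chr5:90786103-90789600), Cxcl1 (chr5:90891241-90893115) and Cxcl2 (chr5:90903871-90905938). Cxcl15 (chr5:90794534-90803067), which is not among the 6, lies between Cxcl3 and Cxcl1. The promoters are shown because the 6 genes were all higher in the cultured macrophages of batch mbb340, as described below. Whether the promoter matches have a part in that was not tested. Each line gives the 100 bases before the RefSeq start on GRCm38.p6, 5' to 3', with capitals marking a match to the NF-kB consensus; RefSeq entries matched 5 of the 6 genes, all but Cxcl5.
Cxcl1 (chr5:90891145-90891244): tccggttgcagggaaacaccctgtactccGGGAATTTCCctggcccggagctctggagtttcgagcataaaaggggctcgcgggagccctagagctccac
Cxcl2 (chr5:90903799-90903898): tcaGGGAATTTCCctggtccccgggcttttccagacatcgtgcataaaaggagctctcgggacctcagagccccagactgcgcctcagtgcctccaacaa
Cxcl3 (chr5:90786001-90786100): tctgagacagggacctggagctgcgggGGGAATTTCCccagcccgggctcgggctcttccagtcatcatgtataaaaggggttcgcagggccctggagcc
Ppbp (chr5:90768418-90768517): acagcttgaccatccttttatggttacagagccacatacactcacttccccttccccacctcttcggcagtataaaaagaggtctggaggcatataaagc
Pf4 (chr5:90772335-90772434): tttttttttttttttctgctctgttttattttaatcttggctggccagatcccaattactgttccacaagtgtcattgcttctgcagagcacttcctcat

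Cxcl1, Cxcl2 and Cxcl3 carry the same match, GGGAATTTCC, on the plus strand. With negative positions counted back from the start, it lies at -71 to -62 in Cxcl1, -97 to -88 in Cxcl2 and -73 to -64 in Cxcl3. No NF-kB consensus match was found on either strand between 250 bases before and 50 bases after the start of Ppbp or Pf4. Among the 32851 promoters of that 300-base length in the RefSeq table, 5.8% held a match on either strand, and 2.02% held one within the 100 bases shown. Of the other motifs searched on both strands, the AP-1 motif TGANTCA was found in Ppbp (as TGAATCA, at -204 to -198; in 7.81% of all promoters), and the GATA motif AGATAA in Pf4 (bases 37 to 42 after the start; in 11.2% of all promoters). These are matches of letters, not measured binding sites.

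Libraries held 29350158 to 54099085 counts and were made from 2148 to 25000 cells. In batches mbb336, mbb339 and mbb340 in order, PDPN+ co-culture had 25000, 3730 and 2148 cells and PDPN+ BMS493 25000, 22909 and 8229. PDPN+ cells cultured alone had 25000 in each batch. The part of cell number in the PDPN+ values was not tested. RNA integrity numbers ran from 9.2 to 10. Levels are given in CPM, counts scaled to a common library total with TMM factors, as mean ± SD of 3 libraries where so given. Adgre1, the F4/80 gene, averaged 2625 ± 371 CPM in macrophages cultured alone and 0.987 ± 0.262 CPM in PDPN+ cells cultured alone (n = 3 each), while Col3a1, a fibroblast collagen, averaged 2.6 ± 3.13 and 7621 ± 4760 CPM. The source names of the batch mbb336 co-culture pair carry the opposite cell types to the titles. Titles were used, and summed macrophage markers were 136345 CPM or more in the cultured macrophage libraries of that batch and 2447 CPM or less in the PDPN+ co-culture libraries. A gene was called when the edgeR quasi-likelihood test gave a Benjamini-Hochberg adjusted p under 0.05 over all genes tested; every adjusted p below is from that test unless another is named. In sorted bulk cells, fewer cells making a chemokine and less RNA per cell cannot be told apart. Cxcl2 and Cxcl3 share 126 stretches of 50 bases (5.84% of those in Cxcl2 and 3.51% of those in Cxcl3), so a small share of their reads may be hard to assign; no other pair of the 6 genes shares any.

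Compared per length, on the RPKM scale of the authors, Pf4 made up 96.3% to 99.8% of the summed level of the 6 genes in the 13 macrophage libraries that were ex vivo or from batches mbb336 and mbb339, and 81.5% to 91.7% in the 5 cultured ones of batch mbb340. Ex vivo macrophages held 2993 to 3738 RPKM of Pf4, 13.1 to 17.9 RPKM of Cxcl2 and 4.05 to 9.12 RPKM of Cxcl1. Cxcl3 stood at 0.158 to 0.634 RPKM there, and Cxcl5 and Ppbp at 0.225 RPKM or less. On this scale Pf4 led in all 18 macrophage libraries. Cxcl2 came next in 13 of them, and Cxcl3 in the other 5, which are the cultured libraries of batch mbb340.

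**Figure D1:**
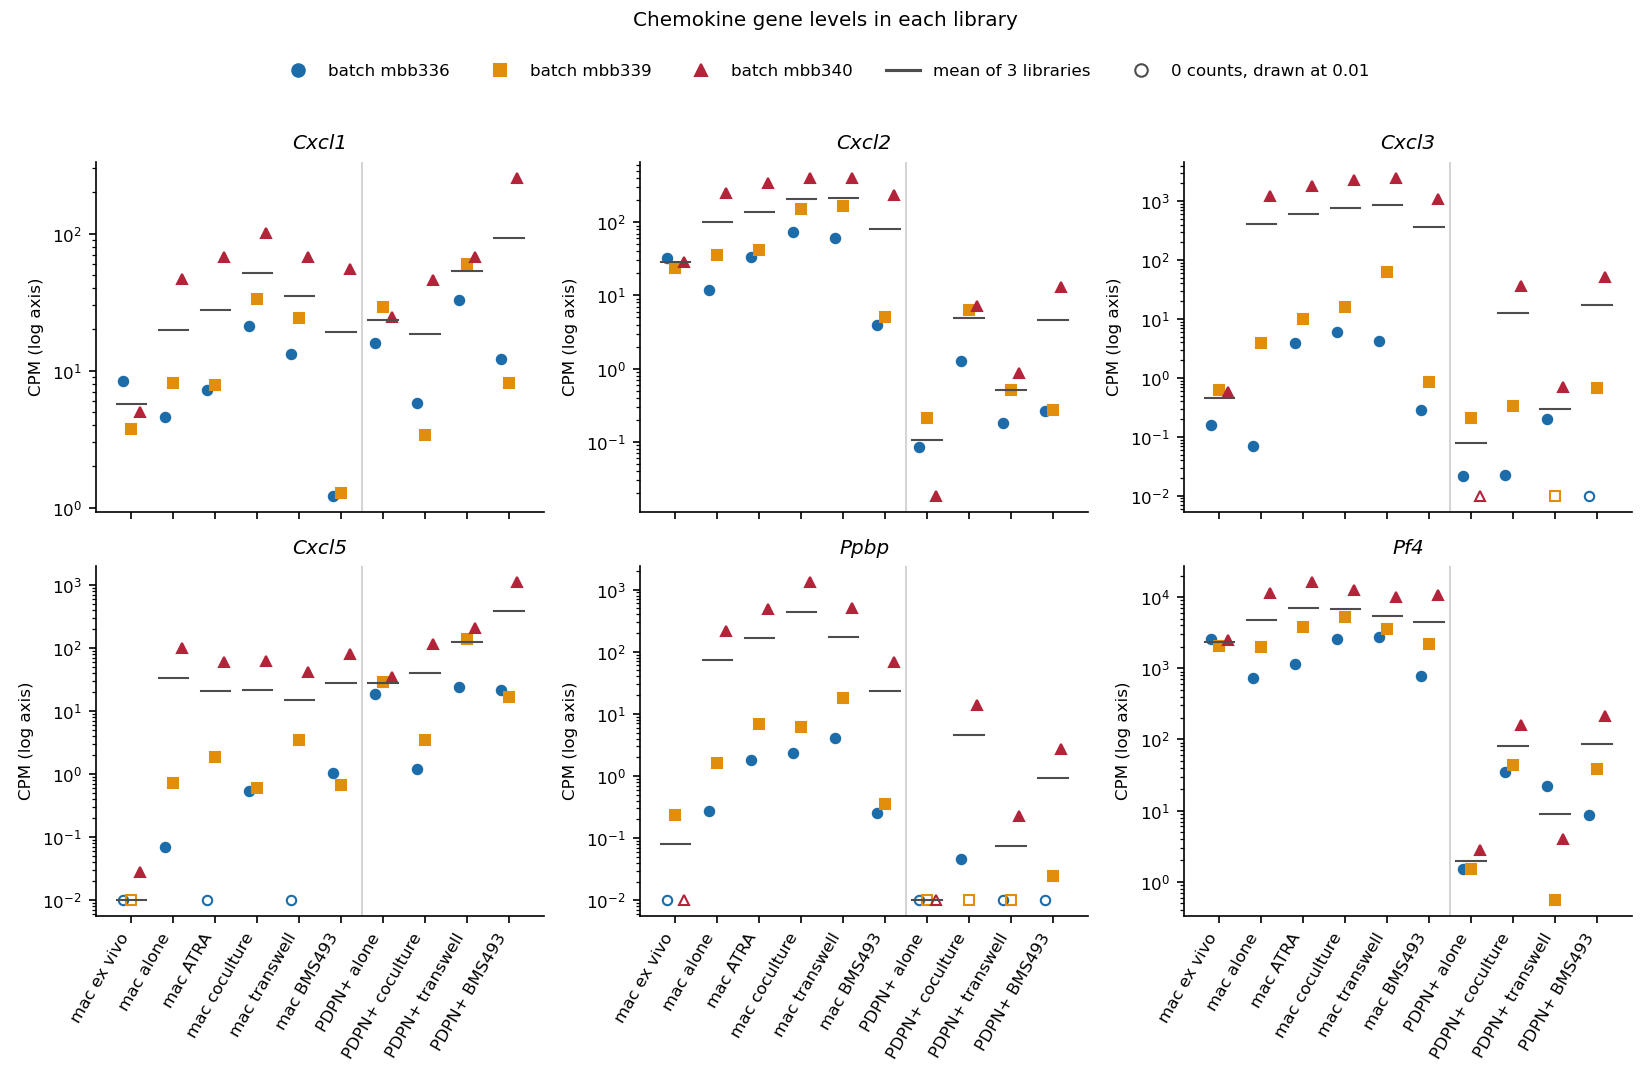
Level of each gene in CPM on a log axis, with 1 point per library coloured by batch and a line at the mean of 3 libraries; hollow points mark libraries with 0 counts, drawn at 0.01. In the 5 cultured macrophage groups the batch mbb340 point is the highest for each of the 6 genes, whereas in ex vivo macrophages the batches lie close together for Cxcl1, Cxcl2 and Pf4.

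The feature that dominates the values is batch. In cultured macrophages Cxcl3 ranged from 1090 to 2508 CPM in the 5 libraries of batch mbb340 and from 0.0694 to 63.3 CPM in the 10 of the other batches. Cxcl3, whose product is a ligand of Cxcr2, was low in every cultured macrophage library of batches mbb336 and mbb339 and high in every one of batch mbb340. The level of Ppbp, whose product is processed to a Cxcr2 ligand, was 68.8 to 1320 CPM in batch mbb340 against 0.25 to 18.3 CPM in the other batches. For Cxcl5 the ranges were 42.1 to 99.2 CPM and 0 to 3.47 CPM.

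The 3 genes already present in ex vivo cells differed less between batches. Cxcl2 stood at 234 to 408 CPM in batch mbb340 and 3.88 to 164 CPM in the others. Cxcl1 spanned 46.6 to 101 CPM and 1.22 to 33.1 CPM, and Pf4 10031 to 16272 CPM and 722 to 5239 CPM. For none of the 6 genes did the cultured libraries of batch mbb340 overlap with the others. The share of all genes without such overlap was not counted. The gene-by-group cases that follow come from the same libraries, so they are not independent. Over the 5 cultured groups, batch mbb340 held the highest value in 30 of 30 gene-by-group cases, and batch mbb339 was above batch mbb336 in 29 of 30, the exception being Cxcl5 under BMS493 (0.671 and 1.03 CPM).

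A fit of the 15 cultured macrophage libraries with group and batch mbb340 as factors, added after these levels were seen, called 6 of 6 genes higher in batch mbb340, where 15.2% of all 17218 genes tested were called higher and 27.3% were called in either direction. The log2 differences were 8.45 ± 0.85 for Cxcl3 (SE; adjusted p = 3.08e-05), 7.24 ± 0.534 for Ppbp (adjusted p = 4.3e-06) and 6.39 ± 0.749 for Cxcl5 (adjusted p = 8.58e-05). Those of Cxcl2, Cxcl1 and Pf4 were 3.28 ± 0.501, 3.07 ± 0.413 and 2.4 ± 0.349 (adjusted p = 0.000525, 0.000227 and 0.00038). The 3 largest differences were those of the 3 genes with the lowest mean levels in batches mbb336 and mbb339 (0.896 CPM for Cxcl5, 4.22 CPM for Ppbp and 10.9 CPM for Cxcl3). Batch mbb340 was singled out from these same values, so the adjusted p values are not independent support for its difference. They also treat the libraries of a single batch as replicates. Both limits hold for the 6 genes in the other batch mbb340 fits below.

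**Figure D2:**
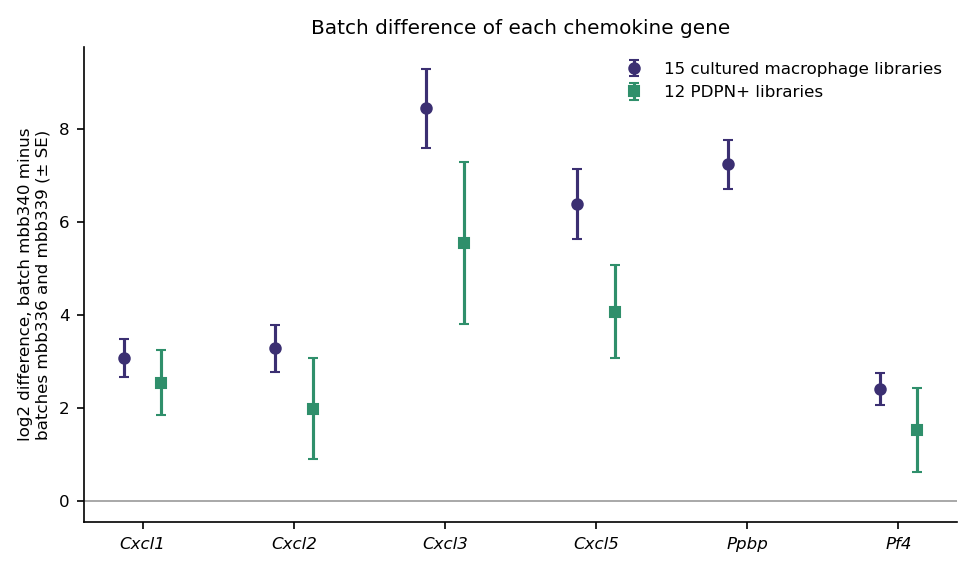
Fitted log2 difference between batch mbb340 and batches mbb336 and mbb339 (vertical axis, ± SE) for each gene, in 15 cultured macrophage libraries (circles) and 12 PDPN+ libraries (squares; Ppbp was not tested there). All points lie above 0; the differences were called for the 6 genes in macrophages and for none in PDPN+ cells.

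Ex vivo macrophages of batch mbb340 did not stand apart in the same way. Cxcl1 measured 8.45, 3.77 and 4.99 CPM in the ex vivo libraries of batches mbb336, mbb339 and mbb340. Cxcl2 measured 32.3, 23.8 and 28.4 CPM and Pf4 2544, 2047 and 2490 CPM in the same order, so batch mbb340 was the middle value for each of the 3. The direct test of the gap (the batch mbb340 difference of cultured minus that of ex vivo macrophages) called 0 of 6 genes in edgeR, with 5 at an unadjusted p under 0.05, against 0.354% of all genes called. The fitted gap was 12.42 ± 3.54 on the log2 scale for Ppbp (adjusted p = 0.154) and 8.04 ± 2.62 for Cxcl3 (adjusted p = 0.216). With no low count filter the same test called 5 of 6, all but Cxcl5, against 2.12% of all genes.

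Other measures moved with batch mbb340 in the cultured macrophages. Of 12 tested genes for inducing cytokines and their receptors, 7 were called higher and 2 lower in batch mbb340, where 15.2% of all genes were higher and 12.1% lower; the same shares apply to the NF-kB and mRNA decay genes below. Il1b, encoding interleukin 1 beta, averaged 241 ± 189 CPM in batch mbb340 and 2.9 ± 1.87 CPM in the others (log2 difference 6.42 ± 0.807, adjusted p = 0.000138). Il1a, encoding interleukin 1 alpha, averaged 456 ± 215 against 38 ± 25.6 CPM (3.78 ± 0.253, adjusted p = 4.1e-06), and Tlr2, a receptor for bacterial lipopeptides, 1001 ± 605 against 318 ± 49.4 CPM (1.5 ± 0.264, adjusted p = 0.00131). Tnf averaged 17.3 ± 5.21 against 9.25 ± 5.4 CPM (1.12 ± 0.329, adjusted p = 0.0238). Of 13 genes for NF-kB subunits and feedback, 5 were higher, led by Tnfaip3, which ends NF-kB signalling (1.55 ± 0.224, adjusted p = 0.000363), and 1 was lower, Nfkb1, which encodes the p50 subunit (-1.04 ± 0.155, adjusted p = 0.000447). Of 6 regulators of mRNA decay, Zc3h12a was higher and Zfp36 and Zfp36l1 were lower (-0.9 ± 0.247 and -1.3 ± 0.244, adjusted p = 0.0175 and 0.00197).

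Summed levels of 10 platelet markers were 1.28 to 10.7, 1.8 to 55.6 and 26 to 106 CPM in the cultured macrophages of batches mbb336, mbb339 and mbb340. Clec1b led them in each macrophage group, and 2 to 4 of the 10 had no count in any given cultured group. Summed neutrophil markers spanned 72.3 to 353, 91.7 to 283 and 89.2 to 191 CPM, with Csf3r leading and Ly6g at 0 in each of the 5 cultured groups. The sum hides opposite differences: of 3 neutrophil markers tested, Csf3r was lower in batch mbb340 (57.4 ± 29.3 against 187 ± 95.7 CPM, adjusted p = 0.00744), and S100a8 (77.3 ± 28.7 against 16.2 ± 8.68 CPM, adjusted p = 0.000197) and Camp (0.557 ± 0.261 against 0.152 ± 0.108 CPM, adjusted p = 0.0446) were higher. Of 5 platelet markers tested, 1 was called, Clec1b (55.9 ± 30.9 against 9.52 ± 15.5 CPM, adjusted p = 0.000227). RNA integrity numbers were 9.8, 9.5 to 9.7 and 9.2 to 9.7, and cell numbers and total counts overlapped. The part of these measures in the batch difference was not tested.

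Culture itself was examined by setting macrophages cultured alone against ex vivo macrophages. Cxcl5, Ppbp and Cxcl3, which were near 0 ex vivo, were the genes with the largest differences, and those differences lay mostly in batch mbb340. Cxcl5 had 0, 0 and 0.0285 CPM ex vivo and 0.0694, 0.717 and 99.2 CPM in cells cultured alone (batches mbb336, mbb339 and mbb340 in order, here and in every such series of values). Ppbp had 0, 0.239 and 0 CPM ex vivo and 0.277, 1.61 and 215 CPM in culture. Both genes were higher in culture in 3 of 3 batches, with no overlap between the groups. That rests on few counts: the cultured library of batch mbb336 held 2 of Cxcl5 and 8 of Ppbp. The ex vivo library of batch mbb339 held 11 of Ppbp. The share of all genes without such overlap was not counted.

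Counted over the 3 libraries, Cxcl5 had 2743 counts in culture and 1 ex vivo, a ratio of 3038 after scaling (exact 95% interval for counting error only, 545 to 120035). Without replicate 3, which is batch mbb340, it was 35 against 0 counts, at least 12.2-fold higher, taking 3 counts in the whole ex vivo group as the limit of a count of 0. For Ppbp the ratio was 600 (335 to 1202), and 7.77 (4.13 to 16.2) without replicate 3. These intervals treat each read as its own molecule, which sequencing without molecular identifiers does not guarantee, and leave out the spread between libraries.

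Cxcl3 measured 0.157, 0.629 and 0.57 CPM ex vivo and 0.0694, 3.89 and 1211 CPM in culture, lower in batch mbb336 and higher in the other batches. Cxcl1 went from 8.45, 3.77 and 4.99 CPM to 4.61, 8.15 and 46.6 CPM, and Cxcl2 from 32.3, 23.8 and 28.4 CPM to 11.9, 35.5 and 253 CPM. Pf4 went from 2544, 2047 and 2490 CPM to 722, 1985 and 11570 CPM. For these 4 genes the groups overlapped and the direction differed between batches.

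In edgeR 0 of 6 genes were called for culture alone against ex vivo, where 17.8% of all 17774 genes were called; 3 of the 6 had an unadjusted p under 0.05. The log2 fold changes were 11.3 ± 4.44 for Cxcl5 (adjusted p = 0.0935), 9.52 ± 3.96 for Ppbp (0.113) and 9.73 ± 4.31 for Cxcl3 (0.137). They were 1.76 ± 1.33 for Cxcl1, 1.8 ± 1.41 for Cxcl2 and 0.99 ± 1.08 for Pf4 (adjusted p = 0.408, 0.429 and 0.595). With batch as a replicate block, 2 of 6 were called against 24.2% of all genes: Cxcl5 (10.52, adjusted p = 0.0019) and Ppbp (7.64, adjusted p = 0.00634). DESeq2 called 0 of the 3 genes to which it gave a p (Cxcl1, Cxcl2 and Pf4), none with an unadjusted p under 0.05. Around them, Tnf (3.98 ± 0.749, adjusted p = 0.00197), Tlr2 (2.73 ± 0.741, adjusted p = 0.0186) and Tnfrsf1b, a TNF receptor (1.42 ± 0.332, adjusted p = 0.00776), rose in culture, 3 of 12 inducing genes in all, where 9.31% of all genes rose. Of the 13 NF-kB genes 4 rose, Ier3, Relb, Nfkbie and Tnip1, and of 5 other CXC ligands Cxcl16, whose product also serves as a scavenger receptor, rose from 36.4 ± 10.3 to 267 ± 31.2 CPM (adjusted p = 5.99e-05). Of the 6 mRNA decay genes edgeR called 0, none with an unadjusted p under 0.05. Single markers of other cells were called higher in culture as well. They were Treml1, 1 of 5 platelet markers tested (0.612 ± 0.267 against 0.0285 ± 0.0494 CPM, adjusted p = 0.00745), S100a8, 1 of 3 neutrophil markers (35.5 ± 42.2 against 3.09 ± 0.856 CPM, adjusted p = 0.0411), and Vwf, 1 of 2 endothelial markers (6.96 ± 8.6 against 0.187 ± 0.233 CPM, adjusted p = 0.0316). The others tested in these lists were not called, among them Csf3r of neutrophils (192 ± 83.5 against 193 ± 38.1 CPM). The neutrophil markers S100a9, Ly6g and Retnlg had no count in macrophages cultured alone. The part of other cells in the chemokine values was not tested.

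Cell type divided the family. Pf4, Cxcl2, Cxcl3 and Ppbp were lower in PDPN+ cells than in macrophages when each was cultured alone. Cxcl1 and Cxcl5 were present in both. Pf4 measured 1.52, 1.53 and 2.8 CPM in PDPN+ cells against 722, 1985 and 11570 CPM in macrophages, and Cxcl2 0.0858, 0.211 and 0.0183 CPM against 11.9, 35.5 and 253 CPM. Neither gene overlapped between the cell types. How many of all genes part the cell types in this way was not counted. Ppbp had no count in the 3 PDPN+ libraries and 5957 in the macrophage ones, at least 2707-fold lower in PDPN+ cells with the same limit of 3 counts, and at least 30.9-fold lower without replicate 3. Cxcl3 had 9 counts in PDPN+ cells and 33268 in macrophages, a ratio of 5038 (2654 to 11019) that became 22.7 (11.7 to 50.5) without replicate 3. In batch mbb336 it had 1 count in PDPN+ cells and 2 in macrophages. The cell types overlapped for Cxcl3, at 0.211 CPM in PDPN+ cells of batch mbb339 and 0.0694 CPM in macrophages of batch mbb336.

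In edgeR, 4 of 6 genes were called lower in PDPN+ cells, where 16.6% of all 20987 genes were called lower and 38.9% in either direction. The log2 differences were -11.27 ± 1.85 for Pf4 (adjusted p = 3.9e-05), -9.98 ± 2.12 for Cxcl2 (0.000634), -12.48 ± 4.61 for Cxcl3 (0.0352) and -14.4 ± 5.17 for Ppbp (0.0317). The calls of Pf4 and Cxcl2 held when any 1 library was left out, but those of Cxcl3 and Ppbp were lost without any of the 3 PDPN+ libraries (adjusted p 0.076 to 0.106) or without macrophage replicate 3 (0.322 and 0.24).

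Cxcl1 and Cxcl5 changed sides with the batch. Cxcl1 measured 16, 29.2 and 24.5 CPM in PDPN+ cells and 4.61, 8.15 and 46.6 CPM in macrophages, and Cxcl5 18.3, 28.9 and 34.8 CPM against 0.0694, 0.717 and 99.2 CPM. Both were higher in PDPN+ cells in batches mbb336 and mbb339 and lower in batch mbb340. The fitted differences were 0.2 ± 1.32 for Cxcl1 and -0.3 ± 2.27 for Cxcl5 (adjusted p = 0.921 and 0.932). With the replicate block Cxcl5 was called higher in PDPN+ cells (4.06, adjusted p = 0.0146), making 5 of 6 genes called against 41.6% of all genes. Without batch mbb340, 5 of 6 were called against 36.8% of all genes: Cxcl1 (1.68, adjusted p = 0.0168) and Cxcl5 (5.66, adjusted p = 0.0213) higher in PDPN+ cells, and Cxcl3 no longer called (-4.29, adjusted p = 0.102).

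Group means were then put in order. Cxcl2 averaged from 28.2 ± 4.26 CPM (ex vivo) to 211 ± 178 CPM (transwell) in the 6 macrophage groups and 4.9 ± 3.2 CPM or less in the 4 PDPN+ groups, and Pf4 from 2360 ± 273 CPM (ex vivo) to 7079 ± 8070 CPM (ATRA) against 86.6 ± 110 CPM or less. For Pf4 no macrophage library was as low as any PDPN+ library, and the share of all genes of which this is true was not counted. For Cxcl2 the cell types overlapped in single libraries: macrophages with BMS493 had 3.88 and 5.12 CPM in batches mbb336 and mbb339, below PDPN+ libraries of the co-culture (6.24 and 7.21 CPM) and of BMS493 culture (13.1 CPM). Cxcl5 had its highest means in PDPN+ cells, 382 ± 629 CPM with BMS493, 124 ± 93.1 CPM in transwell culture and 40.3 ± 65.9 CPM in co-culture. Cxcl1 was highest in PDPN+ cells with BMS493 (92.4 ± 142 CPM) and in transwell culture (53.6 ± 18.2 CPM), next to macrophages of the co-culture (51.7 ± 42.8 CPM), and lowest in ex vivo macrophages (5.74 ± 2.43 CPM). Cxcl3 was highest in macrophages of the transwell culture (858 ± 1429 CPM) and Ppbp in those of the co-culture (443 ± 760 CPM). Several of these ranks rest on the batch mbb340 library. Without it, PDPN+ cells with BMS493 averaged 10.2 CPM of Cxcl1 and 19.1 CPM of Cxcl5, below PDPN+ transwell (46.6 and 81.8 CPM) and PDPN+ alone (22.6 and 23.6 CPM), and Ppbp averaged 4.27 CPM in macrophage co-culture, below transwell (11.2 CPM). Over all 3 batches, neighbouring groups overlapped except at 3 steps: Cxcl2 from ex vivo macrophages to PDPN+ co-culture, Pf4 from ex vivo macrophages to PDPN+ BMS493, and Pf4 from PDPN+ co-culture (80.3 ± 70.9 CPM) to PDPN+ transwell (8.84 ± 11.5 CPM).

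The effect of PDPN+ partners on macrophages was read within batches, because in each cultured group the libraries differed widely between batches. Cxcl1 measured 21.3, 33.1 and 101 CPM in co-culture against 4.61, 8.15 and 46.6 CPM in cells cultured alone. Within batches the log2 ratio was 2.09, 1.96 and 1.1 (of CPM + 0.5, as in each such ratio below). Cxcl1 was therefore higher with PDPN+ cells in 3 of 3 batches, although the groups overlapped. The share of all genes with the same direction in 3 of 3 batches was not counted, here or in the comparisons below. Cxcl2, at 73.1, 152 and 402 CPM in co-culture, was higher by 2.57, 2.08 and 0.67, and Cxcl3, at 6.08, 16.1 and 2302 CPM, by 3.53, 1.92 and 0.93. Ppbp stood at 2.38, 6.16 and 1320 CPM, with ratios of 1.89, 1.66 and 2.62, and Pf4 at 2594, 5239 and 12763 CPM, with ratios of 1.85, 1.4 and 0.14. Cxcl5 was the exception, at 0.542, 0.596 and 62.9 CPM and ratios of 0.87, -0.15 and -0.65.

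The edgeR test called 0 of 6 genes for co-culture against culture alone, against 0.698% of all genes, and none had an unadjusted p under 0.05; the lowest p was that of Cxcl1 (1.37 ± 1.31, adjusted p = 0.71). With the replicate block 0 were called and 2 had an unadjusted p under 0.05. Without batch mbb340, 1 of 6 was called against 5.15% of all genes, Cxcl1 (1.98, adjusted p = 0.0372). Of the 3 genes with a p in DESeq2, 0 were called. The 14 fibroblast markers summed to 9.65 to 103 CPM in macrophages cultured alone and to 363 to 1734 CPM in co-culture, with none at 0; their part in the chemokine values was not tested.

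Macrophages kept apart from PDPN+ cells by a membrane were also compared with cells alone. Transwell macrophages had 13.2, 24.1 and 67.5 CPM of Cxcl1, 61.6, 164 and 408 CPM of Cxcl2 and 4.15, 63.3 and 2508 CPM of Cxcl3. Against culture alone the within-batch ratios were 1.42, 1.51 and 0.53 for Cxcl1, 2.32, 2.19 and 0.69 for Cxcl2, and 3.03, 3.86 and 1.05 for Cxcl3. These 3 genes and Ppbp (2.55, 3.16 and 1.21) were higher in 3 of 3 batches, Pf4 in 2 and Cxcl5 in 1. In edgeR 0 of 6 were called, against 0.0281% of all genes, and none had an unadjusted p under 0.05; Cxcl2 had the lowest p (1.06 ± 1.39, adjusted p = 0.844). With the replicate block 2 of 6 had an unadjusted p under 0.05, with 0 called. Without batch mbb340 the count at an unadjusted p under 0.05 was 4 of 6, with 0 called. With DESeq2 0 of 3 were called. Culture alone is the shared control of these comparisons and of the ATRA comparison, so their values are not independent.

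Contact and transwell culture were also compared directly. Cxcl1 was higher in contact in 3 of 3 batches by 0.67, 0.45 and 0.57, while Cxcl2 differed by 0.25, -0.11 and -0.02. The direction varied between batches for the others too: Cxcl3 differed by 0.5, -1.94 and -0.12, Ppbp by -0.66, -1.5 and 1.41, Cxcl5 by 1.06, -1.86 and 0.57 and Pf4 by -0.08, 0.55 and 0.35. None of the 6 genes was called in edgeR, none had an unadjusted p under 0.05 and 0.0394% of all genes were called; the lowest p was that of Ppbp (1.37 ± 2.6, adjusted p = 1). Again DESeq2 called 0 of 3.

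With ATRA, macrophages had 7.25, 7.81 and 67.8 CPM of Cxcl1 and 33.1, 42.3 and 343 CPM of Cxcl2. The within-batch ratios to culture alone were 0.6, -0.06 and 0.53 for Cxcl1 and 1.44, 0.25 and 0.44 for Cxcl2. Cxcl3 (2.93, 1.27 and 0.57), Ppbp (1.58, 1.82 and 1.19) and Pf4 (0.69, 0.94 and 0.49) were, like Cxcl2, higher with ATRA in 3 of 3 batches. Cxcl5 was higher in 1 of 3. In edgeR 0 of 6 were called, against 0.326% of all genes, none at an unadjusted p under 0.05, and Pf4 had the lowest p (0.54 ± 1.08, adjusted p = 0.99). DESeq2 called 0 of 3.

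With BMS493, Cxcl1 and Cxcl2 had their lowest values of the cultured macrophages in batches mbb336 and mbb339. Cxcl1 stood at 1.22, 1.27 and 55.3 CPM, against 21.3, 33.1 and 101 CPM in co-culture. Cxcl2 stood at 3.88, 5.12 and 234 CPM against 73.1, 152 and 402 CPM. The within-batch ratios were -3.66, -4.25 and -0.86 for Cxcl1, -4.07, -4.76 and -0.78 for Cxcl2, -3.07, -3.63 and -1.08 for Cxcl3, -1.94, -2.96 and -4.25 for Ppbp and -1.72, -1.27 and -0.27 for Pf4. These 5 genes were lower with BMS493 in 3 of 3 batches, and Cxcl5 was higher in 3 of 3 (0.56, 0.1 and 0.36). Whether these libraries differ from the co-culture by BMS493 alone cannot be told from the labels.

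In edgeR 0 of 6 were called for BMS493 against co-culture, against 0.85% of all genes, and none had an unadjusted p under 0.05; the fitted changes were -4.28 ± 2.93 for Ppbp (adjusted p = 0.794), -1.44 ± 1.31 for Cxcl1 (0.896) and -1.38 ± 1.4 for Cxcl2 (0.909). With the replicate block 0 were called and 3 had an unadjusted p under 0.05 (lowest adjusted p = 0.0666). Without batch mbb340, 2 of 6 were called lower, against 1.74% of all genes: Cxcl1 (-4.46, adjusted p = 0.00351) and Cxcl2 (-4.66, adjusted p = 0.0068). The count with DESeq2 was 0 of 3. Of 5 other CXC ligands Cxcl13, a B cell attractant, fell from 483 ± 355 to 11.3 ± 5.31 CPM (-5.44 ± 1.17, adjusted p = 0.0418), and of the 12 inducing, 13 NF-kB and 6 mRNA decay genes edgeR called 0, with 1, 1 and 2 at an unadjusted p under 0.05. Fibroblast markers summed to 1035 to 1366 CPM in these BMS493 libraries; their part was not tested.

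**Figure D3:**
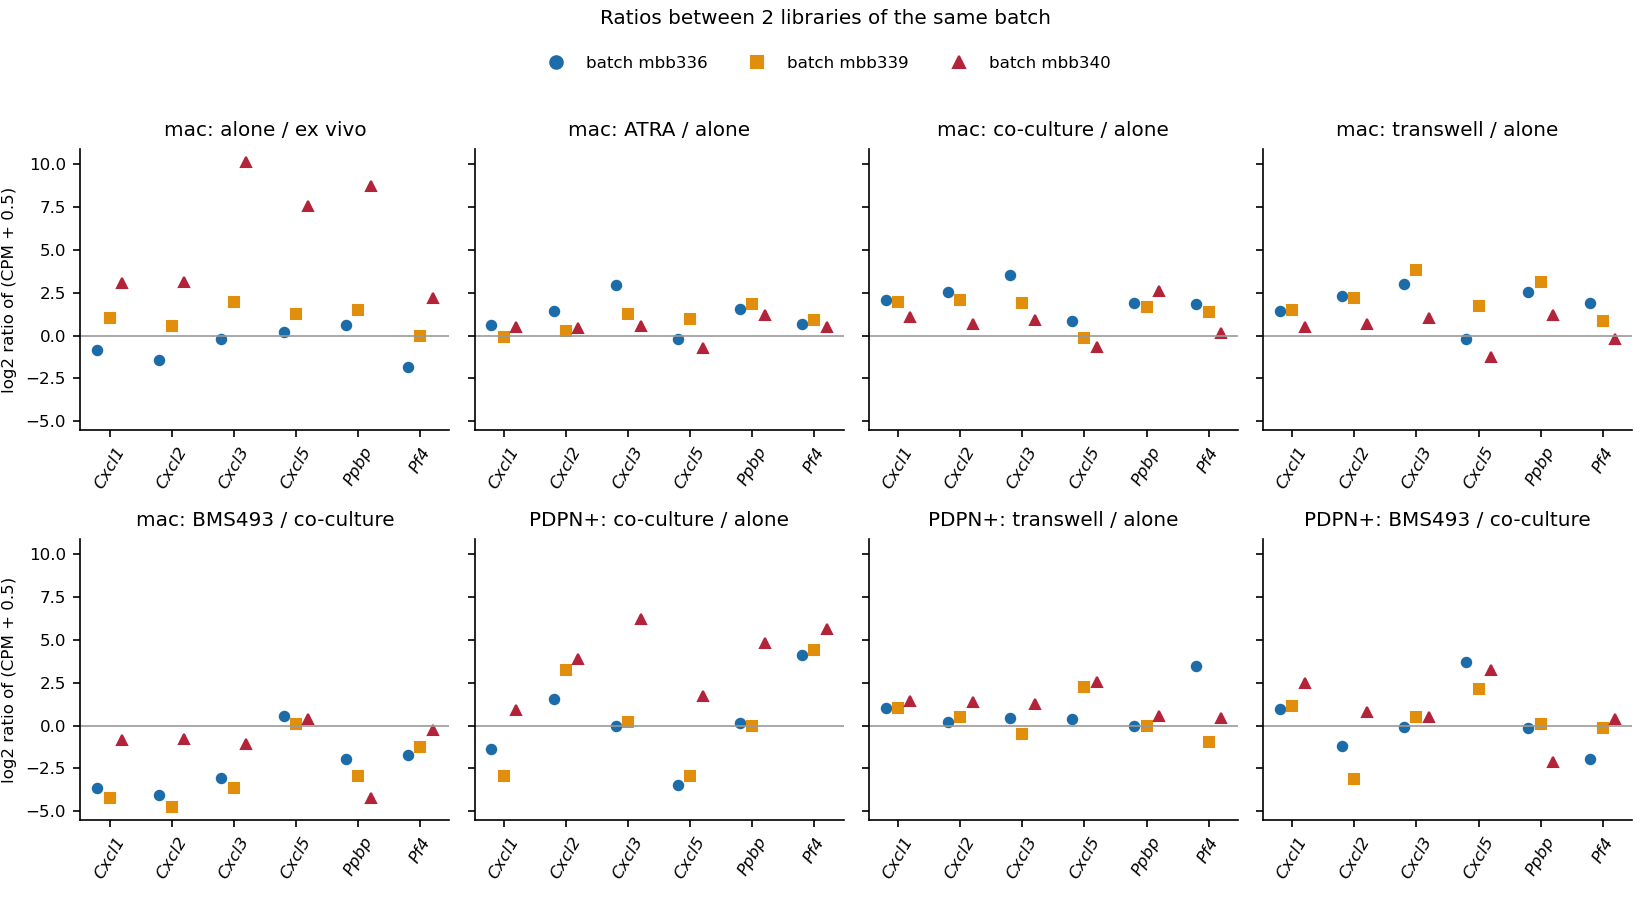
Log2 ratio of CPM + 0.5 between 2 libraries of the same batch, for each gene (horizontal axis) and 8 pairs of groups, coloured by batch. Co-culture and transwell ratios of Cxcl1, Cxcl2 and Cxcl3 in macrophages lie above 0 in 3 of 3 batches and BMS493 ratios below 0, smallest in batch mbb340 in each case.

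In PDPN+ cells the members with the highest levels in cells cultured alone were Cxcl1 and Cxcl5. Cxcl1 measured 16, 29.2 and 24.5 CPM alone, 5.84, 3.37 and 46 CPM in co-culture and 33, 60.2 and 67.6 CPM in transwell culture. Cxcl5, a chemokine typical of stromal and epithelial cells, measured 18.3, 28.9 and 34.8 CPM alone, 1.21, 3.41 and 116 CPM in co-culture and 23.8, 140 and 208 CPM in transwell culture. In transwell culture both genes were above the cells alone in 3 of 3 batches (1.02, 1.03 and 1.45 for Cxcl1 and 0.37, 2.26 and 2.56 for Cxcl5). In co-culture both were below them in batches mbb336 and mbb339 and above them in batch mbb340 (-1.38, -2.94 and 0.9 for Cxcl1 and -3.46, -2.91 and 1.73 for Cxcl5). Contact against transwell was lower in 3 of 3 batches for both, by -2.4, -3.97 and -0.55 for Cxcl1 and -3.83, -5.17 and -0.84 for Cxcl5. Summed levels of 8 mesothelial markers were 1617 to 2652 CPM in PDPN+ cells alone and 36.7 to 1095 CPM in co-culture. They were 169 to 1620 CPM in transwell culture and 12.8 to 1100 CPM with BMS493. In edgeR 0 of the 8 were called for co-culture or transwell culture against cells alone. The part of mesothelial cells in the Cxcl1 and Cxcl5 values was not tested.

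In transwell culture Cxcl2 differed from PDPN+ cells alone by 0.22, 0.5 and 1.39 and Cxcl3 by 0.43, -0.51 and 1.27. Pf4 differed by 3.47, -0.95 and 0.44, and Ppbp had 0, 0 and 0.226 CPM there. None of these differences was called over all 3 batches. For transwell against alone edgeR called 0 of the 5 genes tested (Ppbp did not pass the low count filter in PDPN+ cells), 0% of all 19134 genes and none at an unadjusted p under 0.05; Pf4 had the lowest p (2.25 ± 1.27, adjusted p = 1). DESeq2 also called 0, with 1 of 3 at an unadjusted p under 0.05. For contact against transwell edgeR called 0 of 5, against 0.00523% of all genes, with 2 at an unadjusted p under 0.05. Pf4 again had the lowest p (3.08 ± 1.3, adjusted p = 0.805). With the replicate block 0 were called and 3 had an unadjusted p under 0.05. DESeq2 called 0, with 2 of 3 at an unadjusted p under 0.05.

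With BMS493, PDPN+ cells had 12.2, 8.18 and 257 CPM of Cxcl1 and 21.7, 16.5 and 1108 CPM of Cxcl5. Against co-culture both were higher in 3 of 3 batches, by 1, 1.16 and 2.47 for Cxcl1 and 3.7, 2.12 and 3.25 for Cxcl5. Against cells cultured alone Cxcl1 differed by -0.38, -1.78 and 3.37 and Cxcl5 by 0.24, -0.79 and 4.97, so only the batch mbb340 library was above its counterpart for both genes. Against co-culture Cxcl2 differed by -1.2, -3.12 and 0.82, Cxcl3 by -0.06, 0.5 and 0.48, Pf4 by -1.97, -0.16 and 0.39 and Ppbp by -0.13, 0.07 and -2.13. In edgeR 0 of 5 were called for BMS493 against co-culture, against 0.0157% of all genes and with none at an unadjusted p under 0.05. The lowest p was that of Cxcl1 (2.27 ± 1.23, adjusted p = 1). With the replicate block 0 were called and 1 had an unadjusted p under 0.05. DESeq2 called 0 of 3.

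Batch mbb340 was the highest PDPN+ library in 19 of 24 gene-by-group cases. The exceptions were Cxcl1, Cxcl2 and Cxcl3 in cells cultured alone, Pf4 in transwell culture and Ppbp in cells cultured alone, where no library had a count. These cases share libraries and are not independent, and the share over all genes was not counted. The margin over the next library could be narrow (Cxcl1 in transwell culture, 67.6 against 60.2 CPM) or wide (Cxcl5 with BMS493, 1108 against 21.7 CPM). The added fit of batch mbb340 against the others in the 12 PDPN+ libraries called 0 of 5 genes in edgeR, against 0.047% of all genes and with 3 at an unadjusted p under 0.05. Cxcl5 had the lowest p (4.07 ± 0.999, adjusted p = 0.156), and was called without PDPN+ alone replicate 3 (4.84, adjusted p = 0.045).

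Macrophage-expressed members were found in PDPN+ libraries from the co-culture. Pf4 measured 1.52, 1.53 and 2.8 CPM in PDPN+ cells alone, 35.4, 43.5 and 162 CPM in co-culture, 22, 0.55 and 3.98 CPM in transwell culture and 8.65, 38.9 and 212 CPM with BMS493. Cxcl2 measured 0.0858, 0.211 and 0.0183 CPM alone and 1.26, 6.24 and 7.21 CPM in co-culture. Both were higher in co-culture than alone in 3 of 3 batches, without overlap. The share of all genes parted in this way was not counted. Cxcl3 (0.0228, 0.329 and 36.9 CPM) and Ppbp (0.0456, 0 and 13.7 CPM) were highest in the co-culture library of batch mbb340. In edgeR 0 of 5 genes were called for co-culture against alone and 0% of all genes; 3 of 5 had an unadjusted p under 0.05, and the log2 fold changes were 5.34 ± 1.44 for Pf4 (adjusted p = 0.335) and 5.57 ± 1.61 for Cxcl2 (0.391). With the replicate block 0 were called and 2 had an unadjusted p under 0.05. DESeq2 called Pf4 (5.36, adjusted p = 0.000306) and Cxcl2 (5.58, adjusted p = 0.00156), 2 of the 3 members with a p, against 1.67% of all genes.

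Macrophage markers moved with them. The summed level of 12 macrophage markers was 73.5 to 131 CPM in PDPN+ cells alone, 1740 to 2447 CPM in co-culture, 101 to 630 CPM in transwell culture and 1667 to 3915 CPM with BMS493, with none of the 12 at 0. In co-culture the median marker stood in the PDPN+ library at 1.62%, 1.34% and 1.64% of its level in the macrophage library of the same batch. The corresponding share was 1.36%, 0.831% and 1.27% for Pf4 and 1.72%, 4.11% and 1.79% for Cxcl2. With BMS493 the markers stood at 1.13%, 2.66% and 3.06%, Pf4 at 1.1%, 1.79% and 2.01% and Cxcl2 at 6.82%, 5.34% and 5.6%. The highest single marker stood at 8.48%, 3.58% and 3.29% in co-culture and 5.99%, 3.48% and 3.68% with BMS493, so Cxcl2 was above all 12 markers in co-culture of batch mbb339 and in 3 of 3 BMS493 batches. Cxcl3 stood at 0.375%, 2.04% and 1.6% in co-culture and 0%, 79.2% and 4.74% with BMS493, on 0 and 27 PDPN+ counts in batches mbb336 and mbb339. Ppbp stood at 1.92%, 0% and 1.04% in co-culture and 0%, 7.04% and 4% with BMS493. Cxcl1 and Cxcl5 were above all 12 markers in each co-culture and BMS493 library, at 10.2% or more of the macrophage level. The part of macrophage RNA in the PDPN+ values was not tested.

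**Figure D4:**
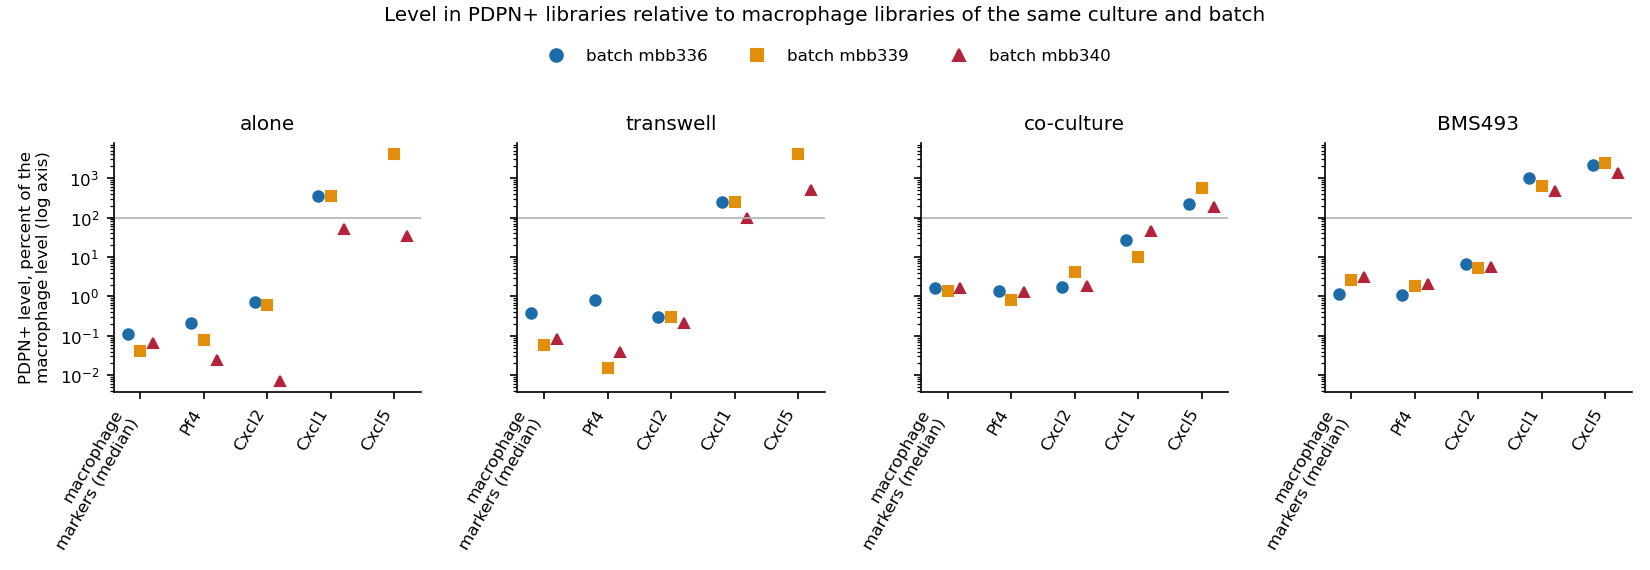
Level in the PDPN+ library as a percent of the level in the macrophage library of the same culture and batch, on a log axis, for the median of 12 macrophage markers and 4 of the chemokine genes; the grey line marks equal levels. In co-culture Pf4 lies at 0.831% to 1.36%, next to the markers at 1.34% to 1.64%, and Cxcl1 and Cxcl5 lie above; ratios with fewer than 4 macrophage counts are not drawn.

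Whether PDPN+ cells and macrophages differed in their response was tested with interaction terms over all 30 libraries. For co-culture edgeR called 0 of 6 genes, against 0.986% of all genes, with 1 at an unadjusted p under 0.05, Pf4 (4.83 ± 1.79 more in PDPN+ cells, adjusted p = 0.264). With the replicate block 0 were called and 4 of 6 had an unadjusted p under 0.05 (lowest adjusted p = 0.162). Without batch mbb340, 1 of 6 was called against 1.53% of all genes, Cxcl1 (-4.42, adjusted p = 0.0107), higher in co-culture in macrophages and lower in PDPN+ cells of those batches. DESeq2 called 0 of the 4 genes it gave a p, with 2 at an unadjusted p under 0.05. For transwell culture edgeR called 0 of 6 genes, 0% of all genes and none at an unadjusted p under 0.05 (Pf4 2.02 ± 1.72, adjusted p = 1), and DESeq2 0 of 4. For BMS493 against co-culture, a test added after the values were seen, edgeR called 0 of 6, against 0.00953% of all genes and with none at an unadjusted p under 0.05. Cxcl1 had the lowest p (3.73 ± 1.92, adjusted p = 1). With the replicate block 0 were called and 1 had an unadjusted p under 0.05.

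The receptors were low in these cells. Cxcr1 had no count in any of the 30 libraries. Cxcr2, the shared receptor of the neutrophil-attracting members, ranged from 0.159 to 1.05 CPM in macrophages and from 0.688 to 6.83 CPM in PDPN+ cells, and was higher in PDPN+ cells than in macrophages cultured alone (3 ± 3.32 against 0.492 ± 0.247 CPM; 2.58 ± 0.71, adjusted p = 0.00581). Cxcr3, a receptor for other CXC ligands, had 5.23 ± 3.87 CPM in macrophages cultured alone and no count in PDPN+ cells cultured alone. Of 3 receptor genes tested between the cell types, 2 were higher and 1 lower in PDPN+ cells. Of 6 other CXC ligands tested there, Cxcl12, a homing signal for lymphocytes and precursors (1132 ± 98.8 CPM), and Cxcl10 (7.46 ± 1.32 CPM) were higher and Cxcl14 lower in PDPN+ cells. In the same comparison Il1r1, the interleukin 1 receptor, was higher in PDPN+ cells (139 ± 55.5 against 1.88 ± 2.27 CPM, adjusted p = 0.000114), as was Il17rc, a subunit of the interleukin 17 receptor (25.8 ± 4.39 against 0.298 ± 0.0369 CPM, adjusted p = 2.08e-06). Over all genes 22.3% were higher and 16.6% lower in PDPN+ cells. Of the 12 inducing genes these 2 were higher and 6 lower, among them Tnf (-10.35 ± 1.23, adjusted p = 5.5e-07) and Il1b (-9.64 ± 3.81, adjusted p = 0.0484). Of the 13 NF-kB genes 1 was higher, Nfkbiz, and 7 were lower, and of the 6 mRNA decay genes edgeR called 0, with 3 at an unadjusted p under 0.05.

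Across the 18 macrophage libraries, the log2 levels of pairs of the 6 genes correlated with a median Pearson r of 0.89 (0.75 to 0.98 over 15 pairs). The libraries share batches, and without batch mbb340 the median over 12 libraries was 0.7 (0.16 to 0.97). Cxcl1 and Cxcl2 stayed closest (0.98 with and 0.97 without batch mbb340), as did Cxcl3 and Ppbp (0.98 and 0.97), whereas Cxcl1 and Cxcl5 went from 0.78 to 0.16. In the 12 PDPN+ libraries the median was 0.64 (0.03 to 0.95), but over the 8 without batch mbb340 it was -0.15 (-0.76 to 0.88). Cxcl1 and Cxcl5 held the highest value there, 0.95 with and 0.88 without batch mbb340. These are descriptions over libraries that share batch and treatment.

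Outside the 6 genes, Il1a, Clec4e (a C-type lectin receptor induced by inflammation) and Ptges (which makes prostaglandin E2) were the 3 genes most like both Cxcl1 and Cxcl2 in macrophages, among 8142 candidates. Their r was 0.942, 0.933 and 0.925 with Cxcl1 and 0.93, 0.941 and 0.939 with Cxcl2, and 0.81 to 0.91 without batch mbb340. Cxcl3 was closest to Lrpap1 (0.97), Cd1d1 and Hilpda, Ppbp to Cd1d1 (0.97), AA467197 and Cish, Cxcl5 to Slc6a12 (0.984), H2-M2 and Clmp, and Pf4 to Txndc12 (0.947), Fkbp11 and Cd9. Without batch mbb340 the r of these 4 members with the genes named ran from 0.68 (H2-M2 with Cxcl5) to 0.87 (Hilpda with Cxcl3). In PDPN+ cells, among 8618 candidates, Cxcl1 and Cxcl5 shared their closest gene, Ccl7, a monocyte-attracting chemokine (0.948 and 0.967, and 0.94 and 0.96 without batch mbb340), followed by Ccl2 and Serpina3g for Cxcl1 and Serpina3g and Ptx3 for Cxcl5. Pf4 was closest to Ccl6 (0.969), Pla2g7 and Ctss there. Cxcl2 was closest to Tgif1 (0.927), Filip1l and Mmp9, and Cxcl3 to Picalm (0.951), Mmp9 and Mllt11. For Cxcl2 and Cxcl3 these r ran from 0.71 (Mmp9 with Cxcl3) to 0.9 (Tgif1 with Cxcl2) without batch mbb340, and for Pf4 from 0.88 (Pla2g7) to 0.97 (Ccl6).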

How the data were processed

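Gene expression was measured by polyA RNA sequencing in 30 mouse libraries. Per the file headers, the authors deposited raw counts of reads uniquely aligned to each gene model, and RPKM values adjusted by their size factors; per the submitters' processing notes, reads were aligned with GSNAP to GRCm38. For the annotation and strand setting the sources used here give nothing. Groups were taken from sample titles, because the source names of the batch mbb336 co-culture pair carry the opposite cell types. Gene models without a symbol (192, holding 0.0358% of counts) stayed out of the naming of genes.

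Counts were tested with edgeR 4.0.16 (R 4.3.3): TMM factors, the default filter on low counts by group and quasi-likelihood tests, with Benjamini-Hochberg adjustment over all genes tested and calls at 0.05. Macrophages (18 libraries), PDPN+ cells (12) and all 30 libraries were fitted separately, with 13 planned comparisons and 4 added after the values were seen. Alternatives were DESeq2 1.42.0, its size factors (RLE) in edgeR, no filter on low counts, batch as a replicate block, no batch mbb340 and leaving out each library. The procedure was also run on simulated macrophage counts for culture alone against ex vivo. Those counts held no batch effect, so that run does not show how the tests behave for genes that differ between batches. RPKM served to rank genes within a library, to give the share of Pf4 among the 6 genes and to state ex vivo levels, and entered no test. Replicate numbers follow the batch label. As a check of the pairing, deviations of same-batch libraries from their group means correlated with a median r of 0.186 over 45 macrophage pairs (28 over 0.1) and 0.11 over 18 PDPN+ pairs (10 over 0.1). What a batch was (animals, day or run) is not stated.

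All 6 genes were considered in every comparison; where none was called, the fitted change is given for the gene with the lowest p and for any called under an alternative. Of the gene lists, called members are named, up to 4 per list, with at least 10 CPM in the higher group and the largest change; receptors and other CXC ligands are named from 1 CPM. Genes of like pattern are the 3 with the highest Pearson r of log2 (CPM + 0.5). Cxcr1 and other names outside this rule were added after their values were seen. The members, lists and tests were chosen with earlier results of these data known.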

Additional observations from a re-analysis of the deposited data

Results flagged for a closer look

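The BMS493 groups differed from the co-culture in opposite directions for Cxcl1, lower in 3 of 3 batches in macrophages and higher in 3 of 3 in PDPN+ cells. The difference between these changes was 3.73 ± 1.92 on the log2 scale and was not called over all 3 batches (edgeR, adjusted p = 1). Without batch mbb340 it was 5.7 and called (adjusted p = 0.00638). The labels do not say which cells shared the BMS493 cultures.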

How the results depend on the processing

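Over 1176 recomputed fitted changes of the 6 genes, 1041 kept direction and side of the threshold, 110 changed sign, 16 gained a call and 9 lost one. Of the 6 genes, the count called for culture alone against ex vivo went from 0 to 2 with the replicate block. Without batch mbb340 it went from 0 to 1 for macrophage co-culture against alone, 0 to 2 for macrophage BMS493 against co-culture, and 0 to 1 for the co-culture and the BMS493 differences between cell types. With DESeq2 it was 2 in place of 0 for PDPN+ co-culture against alone and 2 in place of 4 between cell types; leaving out 1 library gave 2 to 4 there, 2 without macrophage alone replicate 3 or any PDPN+ alone replicate. With no low count filter it went from 0 to 1 for batch mbb340 in PDPN+ cells and from 0 to 5 for the cultured minus ex vivo gap; leaving out 1 library gave 0 to 2 for the former, 1 without PDPN+ transwell replicate 1 and 2 without PDPN+ alone replicate 3.

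Changes of sign, as log2 values, were as follows. For culture alone against ex vivo, Cxcl2 was -0.22 without batch mbb340 and -0.17 to 2.31 with 1 library left out, and Pf4 was -0.14 with the replicate block, -0.74 without batch mbb340 and -0.72 to 1.48 with 1 library left out. For macrophage co-culture against transwell, Ppbp was -0.26 with the block, -1.43 without batch mbb340 and -5.31 to 5.3 with 1 library left out. Between cell types Cxcl5 was 4.06 with the block, 5.66 without batch mbb340 and -0.89 to 5.98 with 1 library left out, and Cxcl1 -0.26 to 1.82. With 1 library left out, Pf4 with ATRA ranged from -0.91 to 2.27, Ppbp in macrophages with BMS493 from -10.55 to 2.42 and Cxcl1 in PDPN+ cells with BMS493 from -0.85 to 4.28. Each lowest and highest value of these came from leaving out a replicate 3 library (batch mbb340), except those from macrophage alone replicate 1 (2.31, 1.48, -0.89 and -0.26). The cause was not tested.

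Counts over all genes also moved: with DESeq2 from 58 to 327 for ATRA, 124 to 712 for co-culture, 5 to 242 for transwell, 7 to 148 for co-culture against transwell and 151 to 430 for BMS493 in macrophages, from 0 to 351, 0 to 20, 1 to 133 and 3 to 116 in the same order of PDPN+ comparisons (co-culture, transwell, co-culture against transwell, BMS493), and from 207 to 681 and 0 to 33 for the co-culture and transwell differences between cell types. With the replicate block the macrophage counts were 143, 429, 23, 33 and 320, and without batch mbb340 they were 106, 930 and 323 for the first 3 and 314 for BMS493. The co-culture difference between cell types gave 377 with the block and 323 without batch mbb340, and the BMS493 one 7 and 24 in place of 2. With no low count filter the batch counts went from 9 to 89 in PDPN+ cells and from 63 to 714 for the gap, and PDPN+ co-culture against alone from 0 to 31; the other counts that moved by over 1.5 times were all 15 or fewer. DESeq2 gave no p for Cxcl3, Cxcl5 and Ppbp in macrophages; the cause was not tested. Depth limits values of Cxcl5 and Ppbp ex vivo, with 1 and 11 counts over 3 libraries.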
